A study of Danio rerio with 6 samples.

Results

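Plakins and desmosome components were followed through the transcriptomes of GFP-positive cells, labelled as zebrafish periderm, and of GFP-negative cells of the same embryos. The set was defined by gene symbol: *ppl*, *eppk1*, *evpla*, *evplb*, *dspa*, *dspb*, *dsc2l*, *pkp3a*, *jupa* and *jupb*. Of these 10 symbols, 8 were found among the 26190 genes of the deposited table, with 17 of its 51286 transcripts, and *evplb* and *dspb* were not. The set and the lists of related genes below were chosen with earlier results of these data known, but no measured value entered the rule for membership. A further pair of identifiers is listed only under human-style symbols, DSP (1 of many) (ENSDARG00000076673) and EVPL (1 of many) (ENSDARG00000103459); they are described beside *dspa* and *evpla* as related genes, were chosen after their values had been seen, and are not counted as members.

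The 6 libraries were made from 4-somite-stage embryos of the Tg(krt4:GFP) line. Its GFP is under the control of regulatory sequence of *krt4*, a keratin gene, and marks the enveloping layer, the superficial epithelium of the early embryo that is also called periderm. Dissociated embryos from 3 independent incrosses were sorted into GFP-positive cells, labelled as periderm, and GFP-negative cells, labelled as non-periderm, with 3 libraries of each. Both populations carried the transgene and neither received a treatment, so that GFP status was the sole difference by design. The GFP-negative population is a mixture of tissues. Markers of several tissues other than periderm were higher in the GFP-positive cells (below), so these are not taken to be periderm alone.

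Desmosomes are the junctions that tie the keratin filaments of neighbouring epithelial cells together. Desmosomal cadherins (desmocollins and desmogleins) cross the membrane, the armadillo proteins plakoglobin and plakophilin bind their tails, and desmoplakin, a plakin, links this plaque to keratin. Periplakin, envoplakin and epiplakin are plakins of surface epithelia: the first pair is known in mammals as precursors of the cornified envelope, where transglutaminases crosslink them beneath the plasma membrane, and epiplakin binds keratin filaments.

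Library totals lay between 40584467 and 49679602 estimated counts, so that 3 counts corresponded to 0.0604 to 0.0739 CPM (counts scaled to the library total), and the totals of both populations overlapped. *krt4* itself stood at 2430 ± 144 TPM (a length- and depth-scaled abundance, summed here over a gene's transcripts; mean ± SD, n = 3) in GFP-positive and 602 ± 49.5 TPM in GFP-negative cells. All 12 markers of the enveloping layer passed the test below towards GFP-positive cells, at a summed level of 5932 to 6156 TPM against 924 to 1026 TPM. These markers include *krt4*, whose regulatory sequence drives the GFP, and were listed with earlier results of these data known. Their values therefore describe the sorted cells and do not test the label. Several marker lists of other tissues differed between the populations as well. The 7 hatching gland genes summed to 6565 to 6819 TPM against 891 to 895 TPM and 7 of 7 were called higher in GFP-positive cells, the 8 genes of paraxial mesoderm and muscle to 3182 to 3372 TPM against 1085 to 1120 TPM (4 higher, 3 lower), and the 5 notochord genes to 293 to 374 TPM against 93.5 to 97.1 TPM (4 higher). The hatching gland list includes *klf17* (81.0 ± 3.19 against 30.6 ± 0.303 TPM), which the study also names as a gene expressed in periderm. Blood and endothelium summed to 1528 to 1808 TPM against 839 to 915 TPM (5 of 8 higher, 2 lower), basal epidermis to 317 to 389 TPM against 242 to 262 TPM (4 of 8 higher, 1 lower), neural tissue to 380 to 436 TPM against 631 to 683 TPM (7 of 7 lower), and heart field to 43.2 to 52.4 TPM against 71.8 to 82.4 TPM (1 of 6 higher, 3 lower). Ionocyte genes (89.2 to 94.3 against 79.8 to 88.9 TPM; 3 of 6 higher, 1 lower) and endoderm genes (75.1 to 79.8 against 65.7 to 71.9 TPM; 3 of 5 higher, 1 lower) differed little in their sums. Some of these sums were carried by few genes. *actc1b* (2977 against 856 TPM) held most of the sum of paraxial mesoderm and muscle, and *col2a1a* (292 against 66.9 TPM) most of that of notochord. The globin genes *hbbe1.1* (1167.5 against 452 TPM) and *hbae3* (271 against 139 TPM) held most of that of blood and endothelium. Such sums do not give the size of a difference in the tissue. None of the marker genes found was at 0 in every library. The part of these tissues in the results below was not tested, and in such bulk samples a smaller number of cells of a type and less RNA per cell cannot be told apart.

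To place the set among all genes, estimated counts were tested per gene with edgeR's quasi-likelihood test, and a gene was called where its adjusted p (Benjamini-Hochberg over 20944 genes tested) was below 0.05 and its mean was above 1 TPM in the population with the higher level. A positive log2 fold change means a higher level in GFP-positive cells. All 8 genes passed the filter on low counts. Of them 7 were called towards GFP-positive cells, where 24.1% of all genes tested were, and 4 were called as higher by at least 2-fold, where 8.45% of all genes were. None was called as higher in GFP-negative cells, where 25% of all genes were; by edgeR 0 were lower at an unadjusted p below 0.05, and DESeq2 and limma called 0 as well. Calls in either direction took up 49% of all genes, so that a call by itself was common. The median log2 fold change of the 8 was 0.97, with a range from -0.04 to 4.13, against a median of 0.02 over all genes tested. The TPM of both populations did not overlap in 6 of the 8 genes, and did not overlap in 58.5% of all genes tested.

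**Figure D1:**
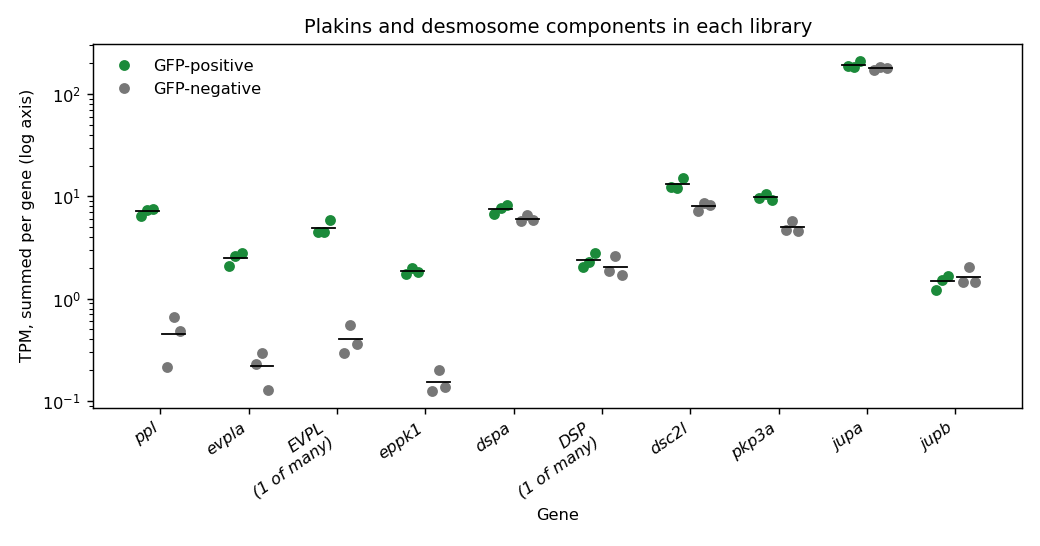
TPM summed per gene (log axis) of the 8 genes of the set and the related genes EVPL (1 of many) and DSP (1 of many) in each library, with a point per library and a line at the mean of 3 libraries. Periplakin, both envoplakin genes and epiplakin were separated widely, the desmosome genes less, and the populations overlapped in *jupa*, *jupb* and DSP (1 of many).

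**Figure D2:**
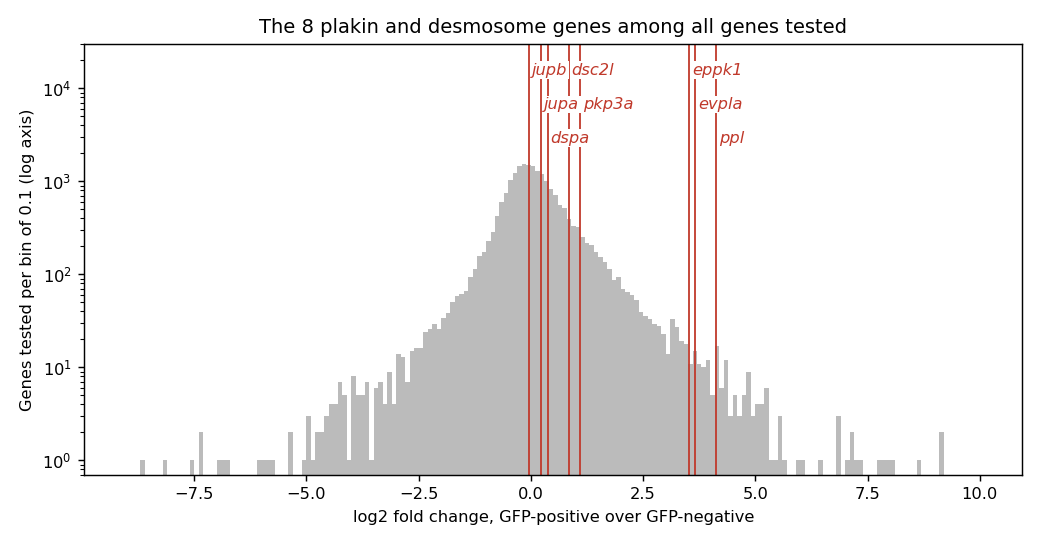
Distribution of the log2 fold change over 20944 genes tested (bins of 0.1, log axis for the number of genes), with a line for each of the 8 genes. *ppl*, *evpla* and *eppk1* lie between 3.53 and 4.13 and the other 5 between -0.04 and 1.098.

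The plakins of surface epithelia showed the largest differences of the set. *ppl* (ENSDARG00000101043), which encodes periplakin, was measured at 6.46, 7.40 and 7.52 TPM in the GFP-positive libraries and at 0.217, 0.657 and 0.480 TPM in the GFP-negative libraries. Every GFP-positive library was thus far above every GFP-negative one, and the GFP-negative libraries differed among themselves more in proportion. Behind these values stood 1438 to 1616 estimated counts against 45 to 114. The means were 7.13 ± 0.583 and 0.451 ± 0.222 TPM (SD, n = 3), and the log2 fold change was 4.13 ± 0.21 (SE; edgeR adjusted p = 1.11e-09), a 17.5-fold difference. In the order of log2 fold changes over all genes tested *ppl* stood at rank 96.

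The envoplakin gene *evpla* (ENSDARG00000019808) was measured at 2.1, 2.59 and 2.77 TPM in GFP-positive libraries and at 0.229, 0.294 and 0.129 TPM in GFP-negative libraries. The populations did not overlap, and the log2 fold change was 3.66 ± 0.20 (SE; edgeR adjusted p = 2.39e-09), or 12.7-fold. The related gene EVPL (1 of many) differed in the same direction, with 4.44, 4.52 and 5.83 TPM against 0.294, 0.556 and 0.3604 TPM. Its log2 fold change was 3.75 ± 0.17 (SE; edgeR adjusted p = 3.62e-10). EVPL (1 of many) was the more abundant of the pair in every library: the log2 ratio of *evpla* to it averaged -0.98 ± 0.16 in GFP-positive and -0.92 ± 0.56 in GFP-negative cells (SD, n = 3), a difference of -0.06 (two-sided exact permutation test over 20 divisions, p = 0.8, adjusted over 3 pairs 0.8). This test takes the libraries as unpaired, and 0.1 is the smallest p it allows.

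Epiplakin is a plakin built of repeated domains. *eppk1* (ENSDARG00000096359) stood at 1.74, 1.98 and 1.81 TPM against 0.125, 0.200 and 0.135 TPM. The lowest GFP-positive library was well above the highest GFP-negative one. The log2 fold change was 3.53 ± 0.14 (SE; edgeR adjusted p = 6.85e-11), or 11.5-fold, at rank 164 of the genes tested. Low TPM did not mean few reads here, since the transcripts of *eppk1* are 14781 and 19233 bases long and the gene held 1118 to 1256 estimated counts in GFP-positive libraries and 88.1 to 116 in GFP-negative ones.

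In GFP-negative cells *ppl*, *eppk1* and *evpla* were thus at 6.33%, 8.32% and 8.72% of their level in GFP-positive cells, and EVPL (1 of many) was at 8.18%. Among the 12 markers of the enveloping layer this percentage ran from 2.16% (*icn2*) to 40.2% (*cldnf*), with 24.8% for *krt4*, 6.77% for *krt92* and 6.35% for *krt5*. The 95% intervals of the log2 fold changes of *ppl* (3.68 to 4.58), *evpla* (3.23 to 4.097) and *eppk1* (3.23 to 3.83) overlapped each other and lay above that of every desmosome gene of the set, of which *pkp3a* reached highest (0.91 to 1.29). The size of these changes depended on the scale. limma on log2(TPM + 1), which understates changes at low levels, gave 2.49 for *ppl*, 1.52 for *evpla* and 1.3 for *eppk1*, all past the threshold. edgeR on the most abundant transcript alone gave 8.08 for *eppk1* and 4.87 for *evpla*, also past it. In GFP-negative libraries these transcripts were estimated at 0, 6.31 and 0 counts (*eppk1*) and at 0, 67 and 0 counts (*evpla*). Both values thus rest on the estimated division of reads (below) and add no support to the changes of the gene sums.

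The study also drew an element near zebrafish *ppl*, named ppl-10, into its reporter assays. It is printed here because *ppl* had the largest fold change of the set, and because it was the one sequence of a regulatory element of a member in the sources used. The aligned element has 812 bases. The run printed covers bases 176 to 415, counted from its first base and read 5′ to 3′ as the study's alignment of the plus strand gives it, with the bases that match the KLF motif GGGNGTGG on the opposite strand in capitals.
ppl-10: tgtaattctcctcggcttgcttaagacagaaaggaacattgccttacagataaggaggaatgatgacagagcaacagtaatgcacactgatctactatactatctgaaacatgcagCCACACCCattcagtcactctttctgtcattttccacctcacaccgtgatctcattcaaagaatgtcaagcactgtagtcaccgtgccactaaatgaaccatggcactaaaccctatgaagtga
Both strands of the 812 bases were searched for GGGNGTGG (KLF), AACCNGTT (GRHL), TGANTCA (AP-1), GGAATG (TEAD), GCCNNNGGC (TFAP2) and TTGCNNAA (C/EBP). GGGNGTGG matched once, at bases 292 to 299 on the minus strand. GGAATG matched once, at bases 232 to 237, TTGCNNAA matched at bases 192 to 199 and, on the minus strand, at bases 751 to 758, and the other motifs were not found as these letters. No matched bases overlapped. The study found that ppl-10 lost much of its periderm enhancer activity when KLF4 binding sites were deleted. Whether the match to the KLF motif is such a site was not analysed here. The share of other sequences of this length that hold these letters was not analysed here, a match is not a bound site, and none of the expression values bears on the element.

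Desmoplakin, the plakin that every desmosome uses, differed far less. *dspa* (ENSDARG00000022309) was measured at 6.72, 7.78 and 8.29 TPM in GFP-positive libraries and at 5.71, 6.65 and 5.84 TPM in GFP-negative libraries. The populations were separated only narrowly, by 6.72 against 6.65 TPM. With means of 7.59 ± 0.799 and 6.06 ± 0.509 TPM, the log2 fold change was 0.37 ± 0.09 (SE; edgeR adjusted p = 0.00214), or 1.295-fold, while limma on log2(TPM + 1) gave 0.28 (adjusted p = 0.0746) and on log2(TPM + 0.1) gave 0.32 (adjusted p = 0.0668), neither past the threshold. The related gene DSP (1 of many) stood at 2.04, 2.30 and 2.77 TPM against 1.86, 2.60 and 1.70 TPM, so that its populations overlapped. Its log2 fold change was 0.33 ± 0.13 (SE; edgeR adjusted p = 0.0508) and it was not called, whereas 5 of 16 alternatives passed the threshold, among them DESeq2 (adjusted p = 0.0416), the fit without a filter on low counts (0.0386) and the fits without GFP-positive replicate 1 (0.024) or GFP-negative replicate 2 (0.00375). The log2 ratio of *dspa* to it was 1.69 ± 0.09 in GFP-positive and 1.58 ± 0.22 in GFP-negative cells (two-sided exact permutation test, p = 0.7, adjusted 0.8).

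The desmosomal cadherin of the set, *dsc2l* (ENSDARG00000039677, a desmocollin-like gene), was measured at 12.2, 12.1 and 15.2 TPM in GFP-positive libraries and at 7.20, 8.54 and 8.27 TPM in GFP-negative libraries. Every GFP-positive library was above every GFP-negative one. The log2 fold change was 0.84 ± 0.08 (SE; edgeR adjusted p = 1.02e-06), or 1.79-fold. With 1199 to 2642 estimated counts in each library *dsc2l* was among the better covered members.

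Of the armadillo genes of the plaque, *pkp3a* (ENSDARG00000051861), which encodes a plakophilin, stood at 9.74, 10.4 and 9.13 TPM in GFP-positive libraries and at 4.67, 5.70 and 4.55 TPM in GFP-negative libraries. The populations did not overlap, and the log2 fold change of 1.098 ± 0.09 (SE; edgeR adjusted p = 1.39e-07) corresponded to 2.14-fold.

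Plakoglobin, which serves in both desmosomes and adherens junctions, is represented by *jupa* and *jupb*. *jupa* (ENSDARG00000070787) was by far the most abundant gene of the set in both populations, at 187, 185 and 213 TPM in GFP-positive and 172, 186 and 181 TPM in GFP-negative libraries. These ranges overlapped. Between 16969 and 24024 estimated counts a library let the test call a log2 fold change of 0.23 ± 0.05 (SE; edgeR adjusted p = 0.00109), or 1.17-fold, whereas limma on log2(TPM + 1) gave 0.11 (adjusted p = 0.165) and on log2(TPM + 0.1) gave 0.12 (adjusted p = 0.168), neither past the threshold. *jupb* (ENSDARG00000059067) was measured at 1.22, 1.52 and 1.68 TPM against 1.46, 2.03 and 1.44 TPM. Its populations overlapped, its log2 fold change was -0.04 ± 0.20 (SE; edgeR adjusted p = 0.875; 95% interval -0.48 to 0.39), and it was the member that was not called. It held 98 to 126 estimated counts a library, and a difference within that interval is not excluded by these libraries.

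The log2 ratio of *jupa* to *jupb* was 7.06 ± 0.18 in GFP-positive and 6.79 ± 0.24 in GFP-negative cells (SD, n = 3), a difference of 0.27 (two-sided exact permutation test over 20 divisions, p = 0.2, adjusted over 3 pairs 0.6) that fell to 0.17 without GFP-positive replicate 1 and to 0.13 without GFP-negative replicate 2. *jupa* exceeded *jupb* in all 6 libraries.

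The order of levels differed between the populations below its first places. In GFP-positive cells the means ran from *jupa* (195 TPM) through *dsc2l* (13.2 TPM), *pkp3a* (9.77 TPM), *dspa* (7.59 TPM), *ppl* (7.13 TPM), *evpla* (2.49 TPM) and *eppk1* (1.84 TPM) to *jupb* (1.47 TPM). Neighbours in this order did not overlap between libraries, except *dspa* and *ppl*. In GFP-negative cells the order was *jupa* (179 TPM), *dsc2l* (8.001 TPM), *dspa* (6.06 TPM), *pkp3a* (4.97 TPM), *jupb* (1.64 TPM), *ppl* (0.451 TPM), *evpla* (0.217 TPM) and *eppk1* (0.153 TPM). There *ppl* overlapped with *evpla* and *evpla* with *eppk1*. Among all genes tested, the mean TPM of *jupa* lay at percentile 95.6 in GFP-positive and 94.8 in GFP-negative cells, and that of *ppl* at percentile 53.3 and 11.03.

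To see whether the other genes of the desmosome moved with the set, 12 further symbols were looked up, of which 7 were found. Of these 4 were called as higher, 1 as lower and 2 were not called, with a median log2 fold change of 0.78. Over all genes tested the shares were 24.1% higher and 25% lower. *pkp1b*, a plakophilin gene, was higher at 1.41 ± 0.09 (14.2 ± 0.715 against 5.80 ± 0.525 TPM) and *dsg2l*, a desmoglein-like cadherin gene, at 1.02 ± 0.13 (5.07 ± 0.705 against 2.72 ± 0.530 TPM). *pkp3b* was higher at 0.78 ± 0.08, and *perp*, which encodes a membrane protein of desmosomes, at 0.23 ± 0.05 (109 ± 7.12 against 101 ± 5.17 TPM). *pkp2*, another plakophilin gene, went the other way, at 18.4, 20.01 and 19.8 TPM in GFP-negative and 5.43, 6.20 and 6.47 TPM in GFP-positive libraries. Its log2 fold change was -1.59 ± 0.08 (SE; edgeR adjusted p = 8.84e-10).

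Plakophilin RNA therefore differed in its mix more than in its amount. Summed over *pkp1a*, *pkp1b*, *pkp2*, *pkp3a*, *pkp3b* and *pkp4*, it reached 63.3, 64.6 and 71.3 TPM in GFP-positive and 56.4, 60.4 and 61.0 TPM in GFP-negative libraries. *pkp2* held 8.58% to 9.59% of that sum in GFP-positive and 32.4% to 33.1% in GFP-negative libraries. *pkp3a* held 12.8% to 16.2% against 7.46% to 9.43%, *pkp1b* 20.3% to 23.3% against 9.31% to 10.48%, and *pkp3b* 24.6% to 27.2% against 17.7% to 18.0%. These shares were computed after the values had been seen and are given as a description. *pkp4* did not pass the test (log2 fold change 0.12 ± 0.08; edgeR adjusted p = 0.221), nor did *pkp1a*, which scattered between 0.102 and 1.83 TPM. Marker lists of other tissues differed between the populations in both directions. Their sums and calls are given above, and the part of any tissue in the difference of *pkp2* was not tested.

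**Figure D3:**
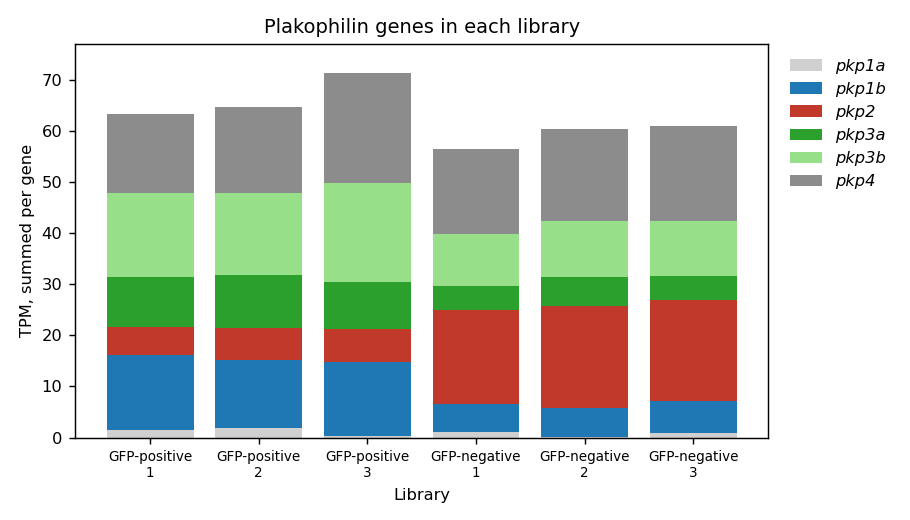
TPM of 6 plakophilin genes in each library, stacked. *pkp2* takes 32.4% to 33.1% of the sum in the GFP-negative libraries and 8.58% to 9.59% in the GFP-positive libraries, where *pkp1b*, *pkp3a* and *pkp3b* take more.

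Among the other plakin genes, which encode large linkers between filaments and junctions, 5 of 9 symbols were found. Of these 2 were called as higher, 1 as lower and 2 were not called (median 0.17). Among all genes tested 24.1% were called as higher and 25% as lower. *plecb*, a plectin gene, had the largest rise, 1.25 ± 0.11, at 10.2 ± 2.53 against 3.84 ± 1.36 TPM. *pleca* was higher at 0.51 ± 0.07. The dystonin gene listed as DST was lower at -0.44 ± 0.12, and its levels were near the limit of 1 TPM (0.778 ± 0.150 against 1.15 ± 0.0727 TPM). For *macf1a* and *macf1b* the values were 0.17 ± 0.11 and -0.44 ± 0.18, neither past the threshold.

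Transglutaminases crosslink envelope proteins, and keratins are the filaments to which desmosomes and plakins attach. For comparison with the counts of both lists, 24.1% of all genes tested were called as higher and 25% as lower. Of 9 transglutaminase genes tested, out of 12 found, 5 were called as higher and 1 as lower (median 2.25). *tgm1* was higher at 5.24 ± 0.35 (2.59 ± 0.453 against 0.0718 ± 0.0690 TPM) and *tgm1l4* at 4.44 ± 0.13 (17.4 ± 1.68 against 0.871 ± 0.154 TPM). A gene listed as TGM1 (1 of many) (ENSDARG00000104218) was lower at -0.72 ± 0.11, and the 3 genes that were not tested had low counts. Of 18 keratin genes tested, out of 21 found, 15 were called as higher and 0 as lower (median 1.92), 0 were lower at an unadjusted p below 0.05 by edgeR, and DESeq2 and limma on log2(TPM + 1) called 0 as well. The largest keratin difference was that of *krt17*, at 4.94 ± 0.08 (217 ± 3.63 against 7.63 ± 0.604 TPM). The marker list of the enveloping layer shares 6 genes with this list, all of them keratin genes.

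Other adhesion complexes were compared in the same way. Hemidesmosomes anchor epithelial cells to the basement membrane, and of their 11 genes tested 7 were called as higher, 1 as lower and 3 were not called (median 0.59). *itgb4*, the integrin chain that is specific to hemidesmosomes, was lower at -0.55 ± 0.15 (2.08 ± 0.605 against 2.85 ± 0.0982 TPM). The hemidesmosomal collagen genes *col17a1a* and *col17a1b* were near the floor and not called, with means from 0.145 to 0.810 TPM. Of 16 adherens junction genes tested, 4 were called as higher, 3 as lower and 9 were not called (median 0.06), shares near those of all genes tested (24.1% higher and 25% lower). *ctnna2*, an alpha-catenin gene, was highest at 1.44 ± 0.23, and *cdh1*, the epithelial cadherin gene, was higher at 0.67 ± 0.05 (98.5 ± 10.8 against 72.04 ± 3.75 TPM). *ctnnd2b*, a delta-catenin gene, was lowest at -0.74 ± 0.08, and *ctnnb1*, the beta-catenin gene, was lower at -0.41 ± 0.04 (736 ± 97.4 against 1106 ± 52.6 TPM), while its relative *jupa* was at 0.23 ± 0.05. Without GFP-positive replicate 3 the number of adherens junction genes called as lower was 6. The lists were compared by their counts and medians, and no difference between lists was tested.

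**Figure D4:**
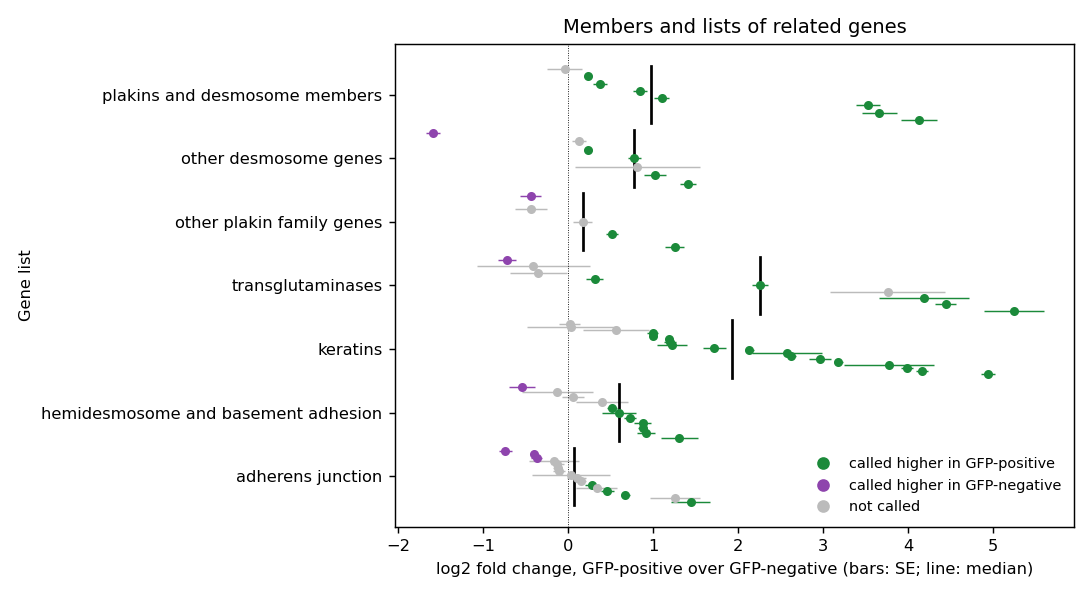
Log2 fold change with its SE for the 8 genes of the set and for 6 lists of related genes, with a point per gene tested, coloured by the edgeR call, and a vertical line at the median of each list. The medians run from 0.06 for adherens junction genes to 2.25 for transglutaminases, with 0.97 for the set.

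Of the 8 genes, 6 have several annotated transcripts, and kallisto divides reads shared between them by estimate, so single transcripts are less certain than gene sums. Of the 17 transcripts 12 passed the filter, and 8 of these had an adjusted p below 0.05 (edgeR), where 34.7% of all transcripts tested did. *ppl* and *dsc2l* have 1 transcript each, and in *jupa* the transcript ENSDART00000003891 held 99.2% to 100% of the gene's TPM in every library.

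In the estimated division of reads, the share of an *eppk1* transcript was called as different between the populations. The gene held only 88.1 to 116 estimated counts in GFP-negative libraries. At 32 to 67 counts in these libraries the division of *evpla*, described below, was unstable. ENSDART00000162408 (14781 bases) was estimated at 564, 627 and 582 counts in GFP-positive libraries and at 0, 6.31 and 0 counts in GFP-negative libraries. It thus made up 51.6%, 62.6% and 57.5% of the gene's TPM in GFP-positive cells, and 0, 7.01% and 0 in GFP-negative cells. ENSDART00000151234 (19233 bases) was at 693, 490 and 562 counts against 88.1, 109 and 89.2 counts and was itself higher, at a log2 fold change of 2.56 ± 0.18. In the test of a transcript's change against that of its gene (edgeR diffSpliceDGE), ENSDART00000162408 differed from the rest of *eppk1* by 4.54 on the log2 scale (adjusted p = 0.000912), and it was the single one of 8 transcripts tested that was called, where 6.06% of all transcripts tested were. The adjusted p of ENSDART00000162408 ran from 0.000184 to 0.0105 when each library was left out in turn. These fits reuse the same estimated division of reads, so they cannot test whether that division is right. The transcript passed the filter on low counts through its GFP-positive libraries alone, and its call is given as a description. The other *eppk1* transcript, ENSDART00000151234, did not pass this test with all libraries (edgeR diffSpliceDGE adjusted p = 0.196). Without GFP-positive replicate 2 a second transcript, ENSDART00000067478 of *pkp3a*, was called (adjusted p = 0.00656), and without GFP-negative replicate 2 the number was 3, with the other *eppk1* transcript (0.0479) and an *evpla* transcript added.

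The division was unstable in *evpla*. In GFP-negative libraries the reads went wholly to ENSDART00000143263 (61 counts), wholly to ENSDART00000026448 (67 counts) and again wholly to ENSDART00000143263 (32 counts), whereas in GFP-positive libraries ENSDART00000026448 held 94.0% to 100%. No difference in the mix was called with all libraries (edgeR diffSpliceDGE adjusted p = 0.606 and 0.875), but ENSDART00000026448 was called without GFP-negative replicate 2 (0.0212), the GFP-negative library in which it held all the reads. In *dspa* ENSDART00000148460 held 76.3% to 78.5% in GFP-positive and 66.0% to 80.8% in GFP-negative libraries and rose by 0.54 ± 0.08 (edgeR adjusted p = 0.002), whereas ENSDART00000029371 was at -0.15 ± 0.33 and did not pass. In *pkp3a* ENSDART00000123211 held 82.3% to 100% of the TPM in every library and rose by 1.14 ± 0.08. In *jupb* ENSDART00000082080 held 76.9% to 100%, with a log2 fold change of 0.11 ± 0.21 that did not pass.

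**Figure D5:**
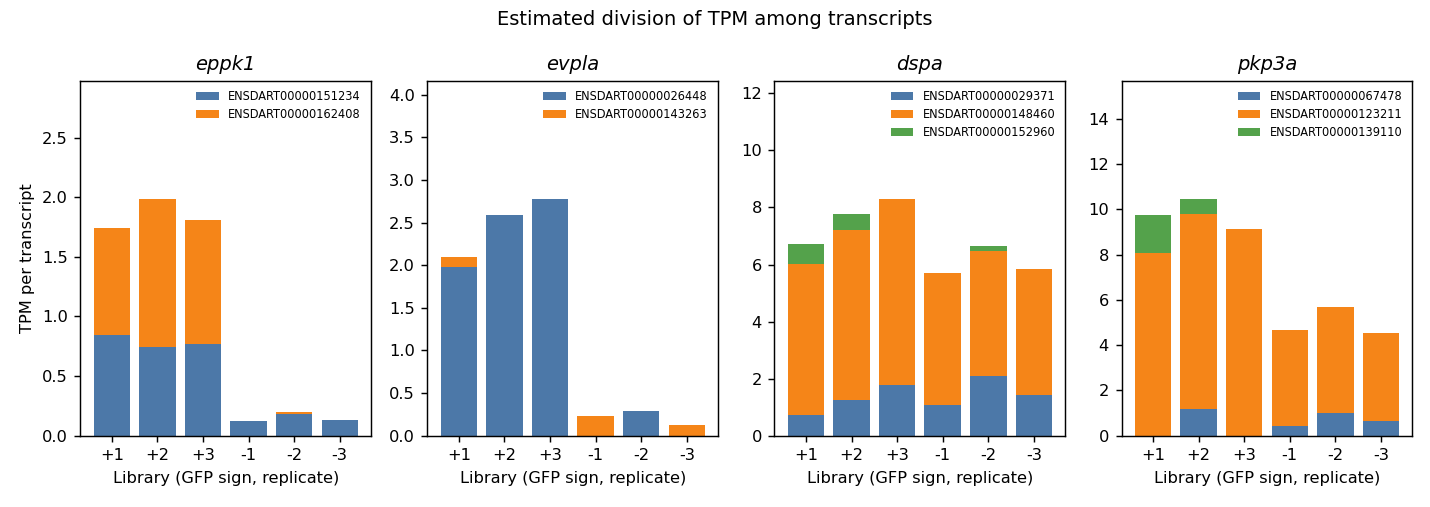
TPM estimated for each transcript of *eppk1*, *evpla*, *dspa* and *pkp3a*, stacked by library (+ for GFP-positive, - for GFP-negative, with the replicate number). ENSDART00000162408 of *eppk1* is at 0, 0.0140 and 0 TPM in the GFP-negative libraries and at 0.896, 1.24 and 1.04 TPM in the GFP-positive libraries, and the *evpla* transcripts change places between GFP-negative libraries.

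The genes whose levels were most like those of *ppl* over the 6 libraries were sought by the Euclidean distance of log2(TPM + 1), among genes with a symbol and a mean above 1 TPM in a population. They were *ftr14l* (distance 0.37; 7.86 against 0.420 TPM), *xirp1* (0.47; 6.80 against 0.716 TPM), which is known from striated muscle, and si:rp71-1h20.9 (0.48; 6.46 against 0.397 TPM).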

How the data were processed

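RNA-seq of 3 GFP-positive and 3 GFP-negative libraries was used. Per the labels and the study's methods, sorted cells of 3 incrosses gave RNA that was amplified with SMART-Seq v4 and made into Nextera XT libraries; the submitters' processing notes name Trimmomatic 0.35, kallisto 0.41, sleuth and danRer10. The authors deposited, for each library and transcript, an estimated count (not normalized) and a TPM value (scaled by transcript length and library). A table of their sleuth comparison gave the gene of each transcript; its effects, p-values and q-values were not used. TPM was the same in both tables for 100% of transcripts, and 58.1% of estimated counts were not whole.

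Both units were summed per gene by Ensembl identifier. Rounded counts entered edgeR 4.0.16 under R 4.3.3 (TMM, filterByExpr, quasi-likelihood F test, Benjamini-Hochberg adjustment over all genes, GFP status as the only term), separately for transcripts and, with diffSpliceDGE, for transcript shares. Libraries of one population differed by a chi-square per degree of freedom of 5.27 to 20.3, so none was a copy of another. This value cannot tell separate preparations of the same RNA from independent samples. The code was also run on simulated counts with a single dispersion and few changed genes. These data differ from that setting, so the run does not bear on the calls given here. Alternatives were DESeq2 1.42.0, limma 3.58.1 on log2(TPM + 1) and log2(TPM + 0.1), RLE factors, library size only, no filter, an adjusted p of 0.01, no TPM limit, a replicate block, leaving out each library and the most abundant transcript. SE is the fold change over the square root of F. Floors and depths cover counting error only.

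Members and lists were chosen with earlier results of these data known. Named were all members, the largest called change of each list in each direction, listed genes on which a sentence turned, the 3 genes nearest to *ppl*, and *krt4*; one gene covered by this rule is not reported here. The related identifiers of *dspa* and *evpla* and their alternatives were added after the data were seen. Promoter and protein sequences were not analysed here.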

Additional observations from a re-analysis of the deposited data

How the results depend on the processing

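Over 16 alternatives for each of the 8 genes, 121 of 128 values kept their direction and their side of the threshold. *dspa* (0.28 and 0.32) and *jupa* (0.11 and 0.12) were no longer past it with limma on log2(TPM + 1) and log2(TPM + 0.1), so that 5 members were called there in place of 7. *jupb*, which was never called, ran from -0.126 (without GFP-negative replicate 3) to 0.109 with libraries left out and changed sign without GFP-positive replicate 1 (0.0512), without GFP-negative replicate 2 and with the most abundant transcript only (0.0905). limma also moved the balance of all calls, of which 49.1% were higher in GFP-positive cells with edgeR, 38.7% on log2(TPM + 1) and 38.5% on log2(TPM + 0.1), with the median of all genes at -0.06 and -0.09 in place of 0.02; on log2(TPM + 1) it called 1 other plakin gene as higher in place of 2 and 0 hemidesmosome genes as lower in place of 1.

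With each library left out in turn, members called as higher stayed at 7; other plakin genes called as lower ran from 1 to 2, adherens junction genes called as lower from 3 to 6 (the highest of both without GFP-positive replicate 3), and member transcripts with a different share from 1 to 3. The balance of *jupa* to *jupb* ran from 0.13 (without GFP-negative replicate 2) to 0.357, that of *dspa* to DSP (1 of many) ran from -0.013 (without GFP-negative replicate 2) to 0.20, and that of *evpla* to EVPL (1 of many) from -0.34 to 0.219 (without GFP-negative replicate 1). The cause of these changes was not tested. DSP (1 of many) was called in 5 of 16 alternatives, at 0.319 with DESeq2, 0.33 without a filter, 0.342 with a replicate block, 0.402 without GFP-positive replicate 1 and 0.505 without GFP-negative replicate 2.

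The labels do not say that a replicate number marks one incross. Same-numbered libraries did not deviate together (correlations 0.051, -0.044 and -0.050 over 20944 genes), and the highest correlation between differently numbered libraries was 0.137. These values do not show which libraries share an incross, nor that pairing is absent. Per the study's methods, each replicate gave cells of both populations, so the libraries are paired by design. The labels do not name the pairs, and the main fit therefore had no replicate block. The permutation tests of the balance between related genes also left the pairing out. With a replicate block 4905 and 5073 genes were called as higher and lower, 7 members were called as higher, and no member's call changed.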
